A study of Mus musculus with 10 samples.

Results

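Tissue factor and the plasminogen activators were followed in mouse lung tumors that had lost the glucose transporter Glut1 and in their controls. The set comprises 9 genes of the 39017 in the count table, taken by their symbols: F3, Tfpi, Tfpi2, Thbd, Procr, Plau, Plaur, Plat and Serpinb2. All 9 passed the filter on low counts, as did 16216 genes in all. The set was chosen by symbol with the fold changes of KPG1 against KP already known, in which F3 was past the threshold, so the differences between genotypes in these 9 genes are described below without p-values. Tests are given for other genes of the pathway, for cell type markers and for variation between tumors of the same genotype. The pathway and marker lists were also chosen with earlier results of these data known. Their p-values between genotypes cannot be taken as independent of those results.

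RNA was sequenced from 5 KP and 5 KPG1 tumor libraries of male C57BL/6 mice. Tumors were started by intratracheal Ad5SPC-Cre, an adenovirus in which the promoter of surfactant protein C drives Cre, so recombination is directed to cells that use this promoter. KPG1 mice were homozygous fl/fl for Slc2a1, the Glut1 gene, whereas the KP controls are labelled heterozygous fl/wt in the genotype field and WT in the sample descriptions. Tumors were dissected 18 weeks and 6 days after initiation in both groups, and the CD45-negative cells left by magnetic removal of leukocytes were sequenced. These cells are a mixture, and cells that Cre did not reach keep their Slc2a1 alleles. The labels do not say whether each tumor came from a separate mouse, so p-values measure only the spread between these libraries.

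Total counts ranged from 32427029 to 49534284 per library. Slc2a1 measured 71.7 to 127 counts-per-million (CPM) in KP and 40.7 to 66.7 CPM in KPG1, and the KPG1 mean was 49.2% of the KP mean (exact permutation test, two-sided, p = 0.00794, the smallest p this design allows). Epithelial markers were abundant in every library, with 333 to 626 CPM of Epcam in KP and 380 to 504 CPM in KPG1. The leukocyte markers summed to 44.9 to 76.3 CPM in KP and 31.3 to 54.2 CPM in KPG1. KP 5 was the deepest library and lay at the opposite end of the first principal component from KP 1, at 71.8 against -74.0. By the sample numbers in the titles KP 5 falls among the KPG1 libraries, and the other KP libraries come after all of them. The labels do not say what this order stands for. It cannot be fully told apart from genotype, and its part in the values was not tested.

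Tissue factor, the product of F3, is a membrane receptor that binds factor VII and starts the clotting cascade. Tissue factor pathway inhibitor, encoded by Tfpi, blocks this first step, and thrombomodulin (Thbd) with the endothelial protein C receptor (Procr) turns thrombin towards activation of the anticoagulant protein C. Urokinase (Plau), held at the cell surface by its receptor (Plaur), and tissue plasminogen activator (Plat) convert plasminogen into the fibrin-degrading protease plasmin, and Serpinb2 encodes a serpin that inhibits urokinase. In lung, tissue factor is known from the epithelium, and thrombomodulin from the endothelium and the alveolar lining.

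Promoter sequence is shown for the 2 genes whose genotype groups did not overlap, F3 and Plaur, and for Procr and Serpinb2, which had the same short motif. Of the 9 genes, 6 were matched by symbol to RefSeq promoters of the build GRCm38.p6; Thbd, Plau and Plat were not matched. The windows are the 250 bases before the start annotated in RefSeq, 5′ to 3′ on the strand of the gene, with capitals marking matches to the AP-1, EGR1 or SP1 motif on either strand. They lie at chr3:121723287-121723536 for F3, chr7:24462233-24462482 for Plaur, chr2:155750967-155751216 for Procr and chr1:107511173-107511422 for Serpinb2, all on the plus strand. Gene positions given below are those of GENCODE M21, in which Procr starts at 155751117, inside its window.
F3: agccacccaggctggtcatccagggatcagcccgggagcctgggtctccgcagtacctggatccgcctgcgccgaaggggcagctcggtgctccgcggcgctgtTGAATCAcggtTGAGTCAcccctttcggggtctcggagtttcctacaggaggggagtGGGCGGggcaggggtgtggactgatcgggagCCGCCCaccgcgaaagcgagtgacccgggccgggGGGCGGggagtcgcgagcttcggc
Plaur: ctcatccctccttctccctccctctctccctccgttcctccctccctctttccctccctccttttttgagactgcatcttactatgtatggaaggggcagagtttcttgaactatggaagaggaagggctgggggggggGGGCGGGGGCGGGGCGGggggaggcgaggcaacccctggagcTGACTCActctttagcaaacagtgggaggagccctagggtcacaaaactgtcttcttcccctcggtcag
Procr: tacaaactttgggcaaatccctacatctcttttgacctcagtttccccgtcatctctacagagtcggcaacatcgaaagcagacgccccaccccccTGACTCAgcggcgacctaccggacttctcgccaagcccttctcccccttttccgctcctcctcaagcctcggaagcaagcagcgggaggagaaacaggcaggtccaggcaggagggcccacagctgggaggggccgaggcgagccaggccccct
Serpinb2: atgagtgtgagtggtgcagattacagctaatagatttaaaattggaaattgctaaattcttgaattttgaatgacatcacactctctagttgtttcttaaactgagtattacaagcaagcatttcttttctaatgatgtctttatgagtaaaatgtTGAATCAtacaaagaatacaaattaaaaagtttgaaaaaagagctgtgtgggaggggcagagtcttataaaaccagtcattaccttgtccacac

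The AP-1 motif TGANTCA, the DNA site of Fos and Jun dimers, occurred in at least 1 window of 5 of the 6 matched genes, that is F3, Plaur, Procr, Serpinb2 and Tfpi2, but not Tfpi. Over all 32851 promoter windows 6.75% held it, and over genes the share was 7.82%. The F3 window held 2 matches, at 146 to 140 and 135 to 129 bases before the start, and the Plaur match lay 69 to 63 bases before it. The Procr match was 154 to 148 bases and the Serpinb2 match 94 to 88 bases before the RefSeq start. The EGR1 motif GCGGGGGCG, present in 2.57% of windows, was found in Plaur at 109 to 101 bases before the start, where it overlapped matches to the SP1 motif GGGCGG, and in 1 window of Tfpi2. F3 held 3 SP1 matches, and 32.7% of all windows held at least 1. No window of the 6 genes matched the CRE motif TGACGTCA or either of a strict and a degenerate form of the NF-kB motif, which 1.55%, 0.14% and 1.41% of all windows held. Both NF-kB forms begin with 3 G bases, and variants that begin otherwise were not searched. Read by eye, the printed F3 window holds such a variant, which begins with C and otherwise matches the degenerate form. It lies between the AP-1 matches and the SP1 matches of F3. How often such variants occur in the other windows was not tested. The motif matches describe letters in a window and were not tested for binding.

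F3, at chr3:121723537-121735048 in the build mm10, was lower in every KPG1 tumor than in every KP tumor. It measured 349, 327, 325, 379 and 565 CPM in KP 1 to KP 5, and 178, 187, 135, 197 and 159 CPM in KPG1 1 to KPG1 5. Of the KP tumors KP 5 stood highest, and the other 4 lay close together. The mean was 389 ± 101 CPM in KP and 171 ± 24.6 CPM in KPG1 (SD, n = 5 each), 44.0% of the KP level, and the fitted log2 fold change of KPG1 against KP was -1.16 (SE 0.17). Without KP 5 it was -1.03 (SE 0.13). F3 was the only one of the 9 genes past the adjusted threshold of 0.05 of limma, which 0.111% of all genes tested passed in this direction. F3 was past it in 2 of 10 fits that left out 1 library each, those without KP 2 and without KP 5.

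**Figure D1:**
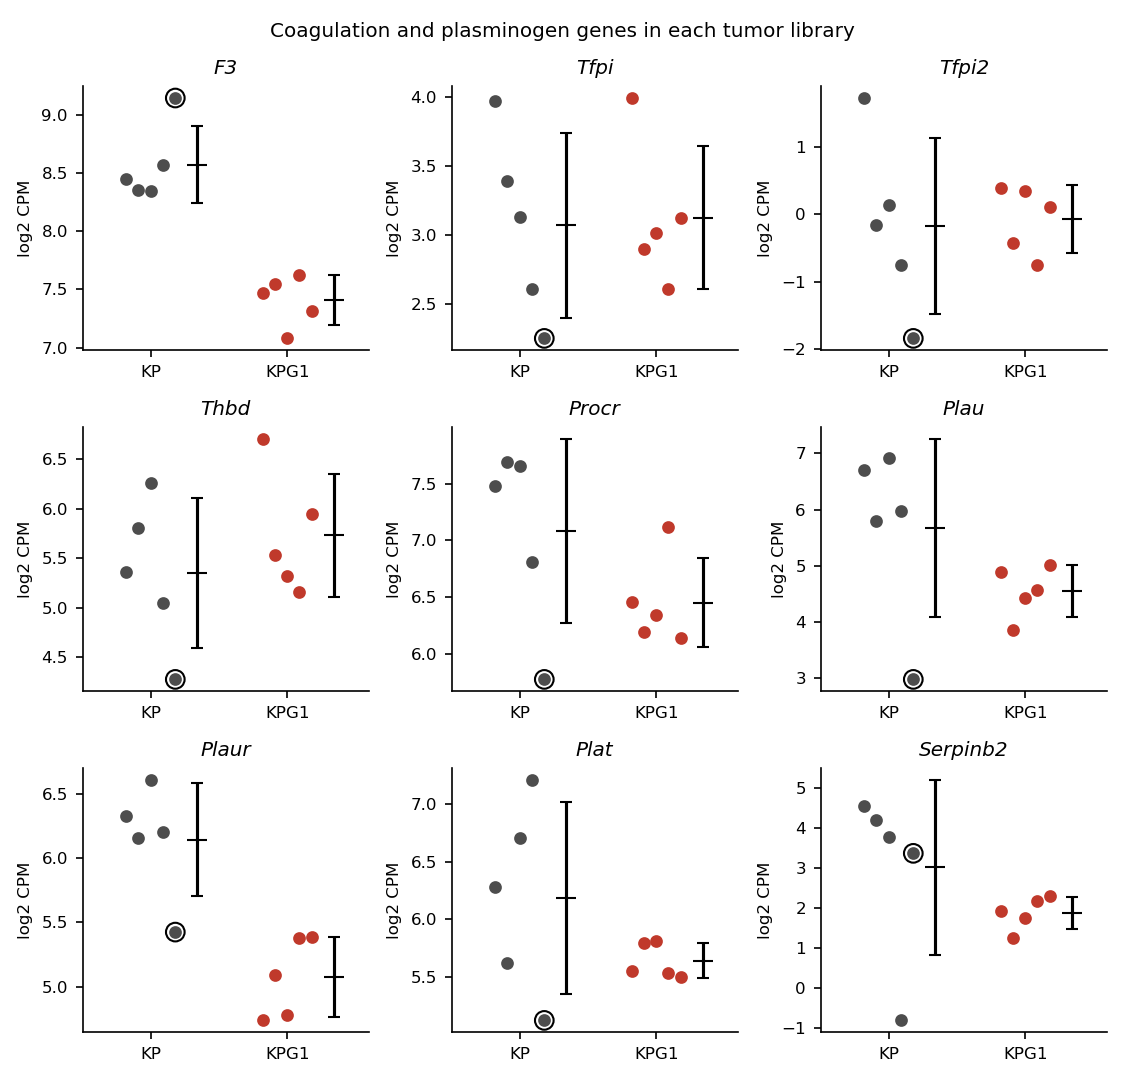
Level of each of the 9 genes in every tumor library, in log2 CPM on the vertical axis of each panel (the axis ranges differ), with KP in grey and KPG1 in red, replicates 1 to 5 from left to right and bars giving the mean ± SD of the group. The circled KP 5 library is the highest of KP for F3 and the lowest of KP for 7 of the other genes, and F3 and Plaur are the genes in which the groups do not overlap.

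The inhibitors of the tissue factor pathway did not follow F3. Tfpi (chr2:84432855-84476775) was expressed at 15.7, 10.5, 8.71, 6.04 and 4.71 CPM in the KP tumors in order, and at 15.9, 7.39, 8.02, 6.06 and 8.67 CPM in the KPG1 tumors. The groups covered nearly the same range, with means of 9.11 ± 4.29 and 9.21 ± 3.86 CPM and a log2 fold change of 0.09 (SE 0.35). Tfpi2 (chr6:3962595-3988919), a related inhibitor that also acts on plasmin, was the least abundant of the set, with 10 to 135 reads per library. Its values were 3.25, 0.85, 1.05, 0.54 and 0.23 CPM in KP and 1.27, 0.70, 1.22, 0.54 and 1.03 CPM in KPG1, and the log2 fold change was 0.17 (SE 0.59). The KPG1 values lay inside the KP range, and the sign of the fitted difference turned to -0.32 (SE 0.50) without KP 5 and was also negative in edgeR and DESeq2, at -0.31 and -0.32. For Tfpi it turned to -0.14 (SE 0.33) without KP 5.

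Scaled by transcript length (TPM, counts per length as a share of the library), the ratio of F3 to Tfpi was 48.1, 67.5, 80.7, 136 and 260 in KP 1 to KP 5 and 24.2, 54.8, 36.5, 70.4 and 39.6 in KPG1 1 to KPG1 5. The mean ratio was 118 ± 85.4 in KP and 45.1 ± 17.9 in KPG1 (SD, n = 5 each). The ranges overlapped, and the F3 values that chose the gene enter this ratio.

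The genes of the protein C receptors had fitted differences of opposite sign, each with overlapping groups. Procr (chr2:155751117-155755471) measured 178, 206, 202, 112 and 54.7 CPM in KP and 88.1, 73.1, 81.2, 139 and 70.7 CPM in KPG1. KP 1, KP 2 and KP 3 lay above all KPG1 tumors, whereas KP 5 lay below them. The log2 fold change of Procr was -0.63 (SE 0.35), and -0.97 (SE 0.23) without KP 5. Thbd (chr2:148404466-148408188) measured 41.1, 55.9, 76.4, 33.1 and 19.3 CPM in KP and 104, 46.1, 39.8, 35.5 and 61.6 CPM in KPG1. KPG1 1 was the highest tumor and KP 5 the lowest, and the log2 fold change was 0.39 (SE 0.38), or 0.11 (SE 0.34) without KP 5. It was 0.13 without KPG1 1 and 0.62 without KP 3, and -0.077 with a weight for each library. The TPM ratio of Thbd to Procr spanned 0.13 to 0.21 among KP tumors and 0.14 to 0.64 among KPG1 tumors, and 4 of the 5 KPG1 tumors lay above all KP tumors and KPG1 4 did not.

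Plaur, the urokinase receptor gene at chr7:24462484-24475968, was the other gene whose groups did not overlap. It measured 80.2, 71.4, 97.6, 73.8 and 42.9 CPM in KP and 26.6, 34.1, 27.4, 41.4 and 41.8 CPM in KPG1. The gap was narrow, since KP 5 lay just above KPG1 5 and KPG1 4, and the other KP tumors were well separated from them. The means were 73.2 ± 19.8 and 34.3 ± 7.32 CPM (SD, n = 5 each), the KPG1 level was 46.8% of the KP level, and the log2 fold change was -1.08 (SE 0.22), or -1.27 (SE 0.16) without KP 5. Plaur did not pass the adjusted threshold in limma but did with DESeq2, which called 2.61% of all genes tested in this direction. Groups failed to overlap with KPG1 lower in 1.76% of all genes tested.

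Plau (chr14:20836660-20843385) had 1 tumor far from the rest of its group. It measured 104, 55.4, 122, 62.6 and 7.78 CPM in KP and 29.5, 14.3, 21.4, 23.6 and 32.3 CPM in KPG1. KP 1 to KP 4 all lay above every KPG1 tumor, and KP 5 lay below every one. The means were 70.4 ± 44.7 and 24.2 ± 7.08 CPM, and the log2 fold change of -1.12 (SE 0.66) became -1.82 (SE 0.29) without KP 5. Without this library Plau and Plaur joined F3 past the adjusted threshold, giving 3 of the 9 genes in place of 1, in a fit that called 1.35% of its 16476 genes in this direction. The TPM ratio of Plaur to Plau was 4.99 in KP 5 and between 0.69 and 2.16 in the other 9 tumors.

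Plat (chr8:22757727-22782844), encoding the activator that works mainly on fibrin, measured 77.7, 49.2, 104, 148 and 34.9 CPM in KP and 46.9, 55.6, 56.2, 46.5 and 45.3 CPM in KPG1. The KPG1 tumors lay within a narrow range inside that of KP, with an SD of 5.33 CPM against 45.1 CPM. The log2 fold change was -0.55 (SE 0.33), with -0.83 (SE 0.26) without KP 5 and -0.30 without KP 4, the highest tumor. Serpinb2 (chr1:107511423-107535478) measured 23.3, 18.2, 13.5, 0.52 and 10.2 CPM in KP and 3.71, 2.33, 3.31, 4.43 and 4.83 CPM in KPG1. All KP tumors but KP 4 lay above the KPG1 tumors, whereas KP 4 lay below them, so that KP tumors differed up to 44.9-fold. The log2 fold change of Serpinb2 was -1.08 (SE 0.96), but -2.10 without KP 4 and -0.67 without KP 1. EdgeR and DESeq2, with all libraries, gave -1.82 and -1.83. The annotated span of Serpinb2 overlaps that of Serpinb10 on the same strand. Whether their exons overlap, so that reads could not be assigned with certainty, was not tested. The spans of the other 8 genes overlap no annotated gene.

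Of the 9 genes 6 had a lower and 3 a higher fitted level in KPG1, and their median log2 fold change was -0.63. With library weights the 3 higher genes, Tfpi, Tfpi2 and Thbd, also turned negative. Over all genes tested 47.3% had a lower fitted level and the median was 0.02. These counts describe genes chosen with the comparison known.

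Compared per length, F3 was the most abundant transcript of the set in both genotypes, at 518 ± 113 TPM in KP and 230 ± 27.6 TPM in KPG1. Procr came next with 254 ± 113 and 152 ± 48.1 TPM. In KP it was followed by Plau at 103 ± 66.9, Plaur at 95.6 ± 28.2, Plat at 45.6 ± 25.5, Thbd at 41.2 ± 19.3, Serpinb2 at 19.3 ± 13.7, Tfpi at 5.79 ± 3.17 and Tfpi2 at 2.43 ± 2.67 TPM. Only F3 and Procr were neighbors in this order without overlapping ranges. In KPG1, Thbd followed Procr at 51.7 ± 22.6 TPM, ahead of Plaur at 44.6 ± 9.55, Plau at 34.7 ± 9.60 and Plat at 27.4 ± 4.01 TPM. Tfpi at 5.68 ± 2.12, Serpinb2 at 5.39 ± 1.42 and Tfpi2 at 1.86 ± 0.65 TPM were the lowest. In KPG1 the steps from Procr to Thbd, from Plat to Tfpi and from Serpinb2 to Tfpi2 had ranges that did not overlap, whereas the other neighbors overlapped. With the longest transcript as the length, Plau and Plaur changed places in KP, Thbd and Plaur in KPG1, and Plau and Plat in KPG1.

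The wider clotting and fibrinolysis pathway was examined in 54 other genes, known regulators of F3 and Thbd included, of which 46 were tested. This list was chosen with earlier results of these data known. Of these 46, 1 passed the adjusted threshold of limma as lower in KPG1 and 0 as higher, against 0.111% and 0.0617% of all genes tested. The fitted level was lower for 32 and higher for 14, and 47.3% of all genes tested had a lower fitted level. The median log2 fold change of the 46 was -0.36, against 0.02 over all genes tested. At an unadjusted p under 0.05, 12 were lower and 1 was higher, and DESeq2 called 11 of the 46 and edgeR 1, against 3.38% and 0.247% of all genes tested. At that unadjusted threshold 6.31% of all genes tested were lower and 5.26% higher. Of the 46, 9 were transcription factors listed as regulators and not clotting or fibrinolysis genes. These regulators held the 1 limma call, the 1 edgeR call and 5 of the 11 DESeq2 calls. They also held 8 of the 32 genes with a lower fitted level. Of the 12 genes lower at the unadjusted threshold 5 were regulators, and 7 lay outside them.

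**Figure D2:**
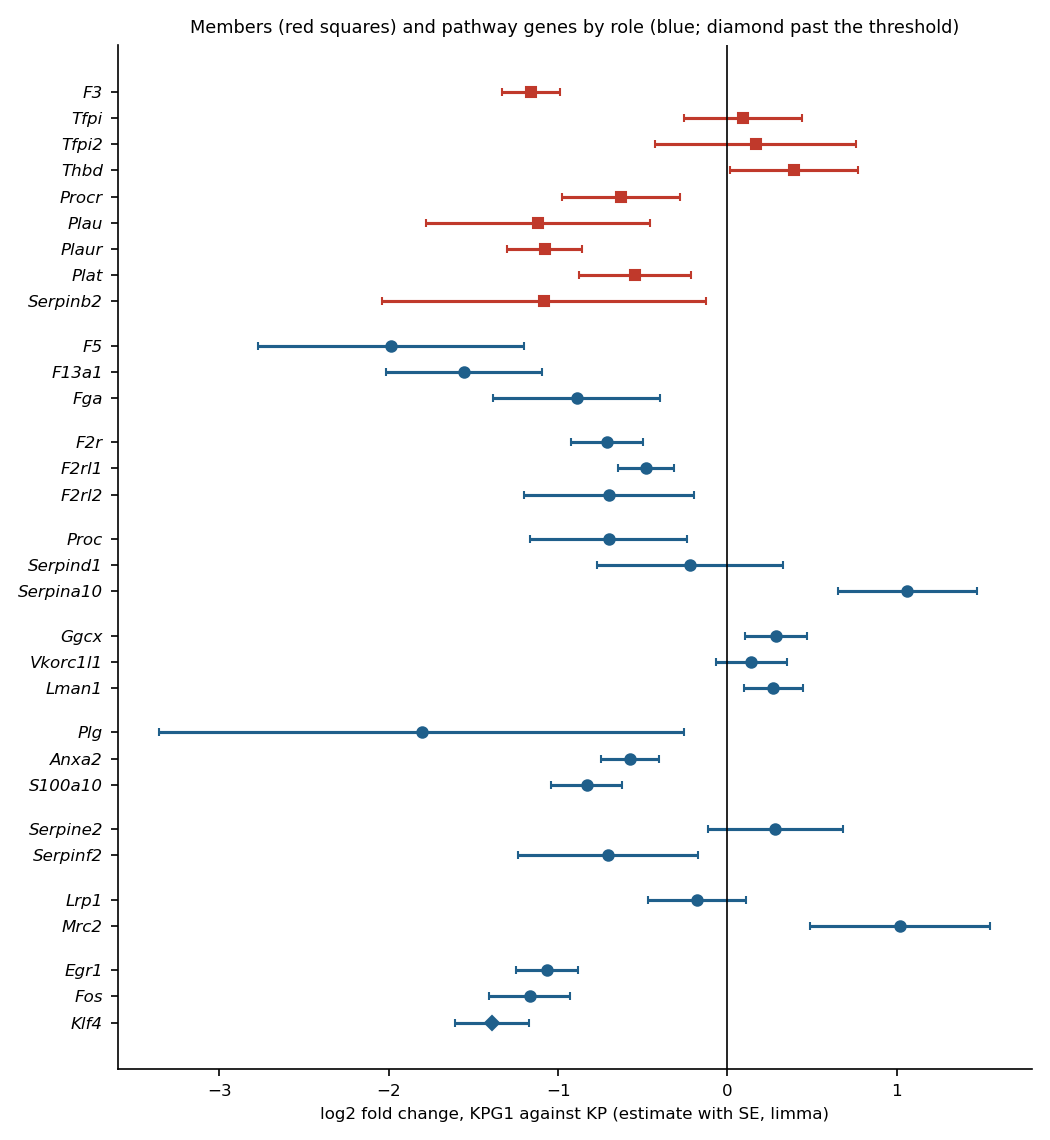
Log2 fold change of KPG1 against KP on the horizontal axis, with the SE of the limma fit as bars, for the 9 genes (red squares) and up to 3 genes of each pathway role (blue), with zero marked by the vertical line. Klf4, the diamond at -1.39, is a listed regulator and the only gene of the pathway list past the adjusted threshold. Plau, Plaur and Serpinb2 lie between -1.12 and -1.08 with SE bars of unequal width.

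Transcription factors that are known to act on F3 or Thbd held the gene that passed. Klf4, a zinc finger factor known to induce thrombomodulin in endothelium, fell from 329 ± 82.7 to 126 ± 33.8 CPM, a log2 difference of -1.39 (SE 0.22, limma adjusted p = 0.0378) and no overlap between the groups. This call held in 1 of the 10 fits that left out a library, the fit without KP 5. Egr1 and Fos, immediate early genes, measured 1565 ± 348 and 2056 ± 367 CPM in KP against 746 ± 159 and 953 ± 336 CPM in KPG1. Their groups did not overlap either, and limma gave log2 fold changes of -1.07 (SE 0.18, adjusted p = 0.0501) and -1.17 (SE 0.24, adjusted p = 0.0852). DESeq2 called 5 of the 9 regulators, Egr1 and Fos among them. Of the 9 regulators 8 had a lower fitted level in KPG1.

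Among the inhibitors of the activators and of plasmin, Serpine2, which inhibits thrombin and urokinase, had a log2 difference of 0.28 (SE 0.40, limma adjusted p = 0.825) and Serpinf2, the plasmin inhibitor gene, -0.71 (SE 0.53, limma adjusted p = 0.637).

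The plasminogen receptor subunits S100a10 and Anxa2, which form a complex on the cell surface, had log2 fold changes of -0.83 (SE 0.21, limma adjusted p = 0.179) and -0.57 (SE 0.17, limma adjusted p = 0.240). Anxa2 groups did not overlap, at 1088 ± 180 CPM in KP and 736 ± 155 CPM in KPG1. Plg itself was at most 78 reads in any library. All 5 tested genes of this role had a lower fitted level, and 0 passed in limma or edgeR, with 2 at an unadjusted limma p under 0.05. DESeq2 called these 2, S100a10 (adjusted p = 0.0137) and Anxa2 (adjusted p = 0.0491). In limma S100a10 also passed with library weights (adjusted p = 0.0317) and without KP 5 (adjusted p = 0.0261).

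The thrombin receptor gene F2r measured 262 ± 103 CPM in KP and 153 ± 19.5 CPM in KPG1 without overlap, and its log2 difference was -0.71 (SE 0.21, limma adjusted p = 0.239). F2rl1, whose receptor is cleaved by the complex of tissue factor with factor VII, had -0.48 (SE 0.17, limma adjusted p = 0.304) and F2rl2 -0.70 (SE 0.50, limma adjusted p = 0.625). The clotting factor genes were mostly low. F5 had a log2 difference of -1.99 (SE 0.78, limma adjusted p = 0.364), F13a1 of -1.56 (SE 0.46, limma adjusted p = 0.236) and Fga of -0.89 (SE 0.49, limma adjusted p = 0.516), and 0 of the 10 tested passed in limma or edgeR, with 2 at an unadjusted limma p under 0.05. DESeq2 called F5 (adjusted p = 0.0301) and F13a1 (adjusted p = 0.0482), and of the receptors F2r (adjusted p = 0.0352).

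Genes of the protein C system and of factor synthesis and the uptake receptors gave no call in limma, edgeR or DESeq2, and 1 had an unadjusted limma p under 0.05. Proc, which encodes protein C, had a log2 difference of -0.70 (SE 0.46, limma adjusted p = 0.590), and Serpina10, whose product inhibits activated factor X, had 1.06 (SE 0.41, limma adjusted p = 0.357), the only pathway gene higher at an unadjusted p under 0.05. Serpind1 had -0.22 (SE 0.55). The vitamin K cycle genes Ggcx and Vkorc1l1 and the cargo receptor gene Lman1 had 0.29 (SE 0.18), 0.14 (SE 0.21) and 0.27 (SE 0.17). Of the receptors that take up activator complexes, Mrc2 had 1.02 (SE 0.53), or 0.47 without KP 5, and Lrp1 -0.18 (SE 0.29). Limma adjusted p-values for these 6 genes lay between 0.493 and 0.908.

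In bulk libraries fewer cells of a type and less RNA per cell cannot be told apart, so 9 marker lists were compared between the genotypes. The 5 epithelial markers summed to 4188 to 5626 CPM in KP and 3209 to 3803 CPM in KPG1, with no overlap (exact permutation test, two-sided, p = 0.00794, adjusted p = 0.0714 over 9 lists). Krt8 and Krt18 were lower in every KPG1 tumor than in every KP tumor, whereas Epcam, Cdh1 and Nkx2-1 overlapped. Of the 5 epithelial markers 2 had a higher mean log2 CPM in KPG1, with Nkx2-1 at 162 to 304 CPM in KP and 264 to 358 CPM in KPG1. All 6 alveolar type 2 markers were also higher by that mean, and Abca3 did not overlap (337 to 1430 CPM in KP, 1489 to 2658 CPM in KPG1). The leukocyte sum, over the 9 of its 10 genes in the table, had a log2 difference of -0.56 (exact permutation test p = 0.0317, adjusted p = 0.143). The alveolar type 2, alveolar type 1, endothelial, fibroblast, pericyte and smooth muscle, mesothelial and platelet sums overlapped between the genotypes, with adjusted p of 0.310 to 0.595 in the same exact test. The part of the lower epithelial and leukocyte sums in the values of F3, Plaur and the other genes was not tested.

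The genes were not picked by their variation between tumors of the same genotype. The limma call of F3, known at the choice, depends in part on that variation, so the spread of F3 is a description. The SD of log2 CPM was larger in KP than in KPG1 for 9 of the 9 genes and for 73.5% of all genes tested. Without KP 5 this held for 6 of the 9 and 61.3% of all genes. Serpinb2 varied more within genotypes than 98.2% of all genes, but more than 64.3% without KP 4. Plau varied more than 95.6%, or 74.5% without KP 5, and F3 more than 35.8%, or 16.6% without KP 5. KP 5 was the lowest KP tumor for 7 genes and the highest for F3, whereas KPG1 1 was the highest KPG1 tumor for Tfpi, Tfpi2 and Thbd, and KPG1 4 the lowest for the same 3.

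**Figure D3:**
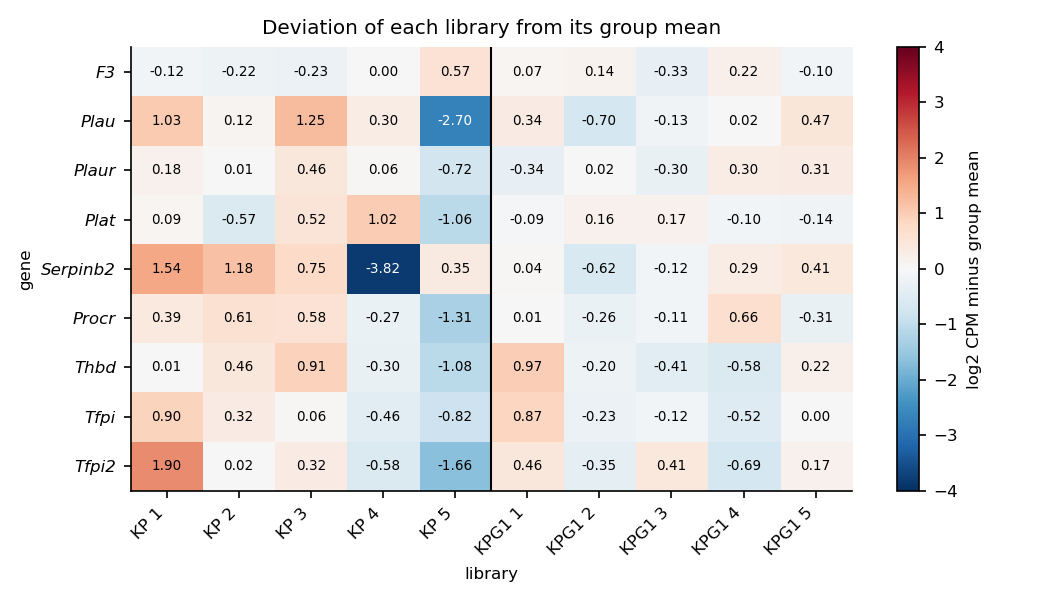
Deviation of each library (columns) from the mean of its genotype in log2 CPM, for each gene (rows), with red above and blue below the mean and the black line between the genotypes. KP 5 is below its group mean in all genes but F3 and Serpinb2, and KP 4 lies at -3.82 for Serpinb2.

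After subtraction of the group means, 27 of the 36 pairs of genes had a positive Pearson r over the 10 libraries, with a median of 0.36. F3 had a negative r with each of the other 8 genes, but without KP 5 with 5 of the 8, and r then ranged from -0.40 with Tfpi2 to 0.25 with Plaur. None of the 36 pairs passed the adjusted threshold by Pearson or Spearman, and 4 had an unadjusted Pearson p under 0.05 (permutation test with 100000 resamples). The related inhibitors Tfpi and Tfpi2 had an r of 0.87 (permutation p = 0.00168, adjusted p = 0.0605) and a rho of 0.89 (permutation p = 0.0018, adjusted p = 0.0648), and r was 0.90 without the 2 libraries farthest from the median. Plau with its receptor gene Plaur had an r of 0.79 and a rho of 0.66 (permutation p = 0.0329 and 0.0511, adjusted p = 0.278 and 0.308), and r was 0.20 without KP 3 and KP 5, so this relation rested on those libraries.

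The members were next compared with the 9 marker lists in the same way, a comparison added after the data had been seen. Of 81 pairs 2 passed the adjusted threshold by Pearson r and 0 by Spearman rho, and 7 had an unadjusted Pearson p under 0.05. Thbd followed the sum of the 8 endothelial markers across tumors (r = 0.96, permutation p = 0.00025, adjusted p = 0.0202). Spearman rho was 0.88 (permutation p = 0.00357, adjusted p = 0.0988), and r was 0.85 without KP 5 and KPG1 1, the tumors farthest from the median of the list. Leaving out each library in turn gave r of 0.93 to 0.97. The endothelial sum was 1155 CPM in KPG1 1, where Thbd was highest, and 256 CPM in KP 5, where it was lowest.

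Tfpi2 followed the sum of the 5 pericyte and smooth muscle markers (r = 0.97, permutation p = 0.0006, adjusted p = 0.0243). In KP this sum varied mostly with Acta2, at 9.20 to 174 CPM, against 18.8 to 31.9 CPM for Pdgfrb and 22.2 to 34.9 CPM for Rgs5. Cspg4 and Myh11 were lower still, and the relation to each marker alone was not tested. Spearman rho of Tfpi2 with the sum was 0.92 (permutation p = 0.00149, adjusted p = 0.0988), and r was 0.95 without KP 1 and KP 5, which held the highest and the lowest sums of 254 and 63.2 CPM. Tfpi with the same list gave r = 0.85 (rho 0.81, permutation p = 0.00264 for r and 0.00908 for rho), and Plau with the fibroblast list gave r = 0.77 (rho 0.84, permutation p = 0.00247 for r and 0.00366 for rho). Neither passed after adjustment (adjusted p = 0.0535 for both r). Without the 2 farthest libraries these were 0.69 and 0.88. Tfpi2 also had an unadjusted permutation p under 0.05 with the fibroblast list (r = 0.78), and Tfpi with the endothelial list (r = 0.71). The same held for Plat with the epithelial list (r = 0.83). The adjusted permutation p of these pairs was 0.285, 0.516 and 0.285. Their r without the 2 farthest libraries was 0.71, 0.08 and 0.67. F3 and Plaur passed with none of the 9 lists.

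**Figure D4:**
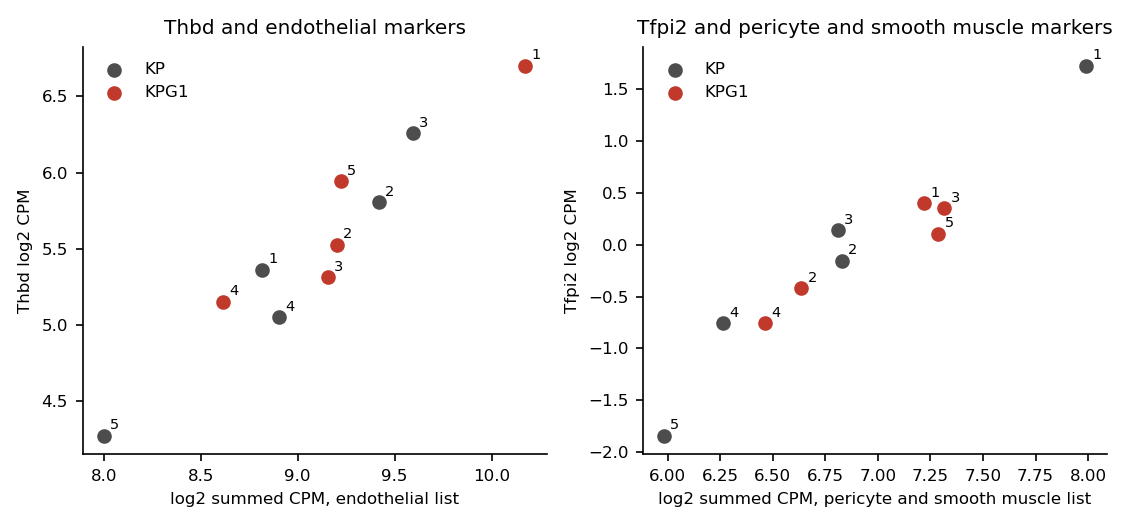
Log2 CPM of Thbd against the log2 summed CPM of endothelial markers (left) and of Tfpi2 against that of pericyte and smooth muscle markers (right), one point per library with its replicate number, KP in grey and KPG1 in red. KP 5 lies at the low end of both panels, KPG1 1 at the high end of the left and KP 1 at the high end of the right.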

How the data were processed

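Per the labels, RNA of CD45-negative tumor cells was made into stranded mRNA libraries and read from a single end. Per the methods the authors trimmed reads with Cutadapt, aligned them to mm10 with HISAT2, and deposited raw counts per Ensembl gene; the submitters' processing notes name bcl2fastq 2.17, cutadapt 1.4.2 and featureCounts 1.4.4. The strand setting and the annotation release are not given in the sources used here. All 390170 values of the joint table of deposited counts equalled those of the single libraries. A deposited table of normalized log2 values was not used. The engineered alleles that start the tumors are not reported here.

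The 9 genes, the pathway and marker lists and the rules were chosen with earlier results of these data known. Named genes are the 9 members, pathway genes past the threshold, up to 3 genes of smallest unadjusted p in each pathway role, Slc2a1, and the 5 genes most like F3 and Plaur in their deviations from the group means; 2 pathway genes that the rule names are not reported here.

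Libraries were normalized by TMM and filtered with filterByExpr, and genotypes were compared with limma 3.58.1 (voom weights, group as the only term), with Benjamini-Hochberg adjustment over 16216 genes and a threshold of 0.05. Alternatives were RLE scaling, no filter, a mean CPM of at least 1, edgeR 4.0.16 quasi-likelihood, DESeq2 1.42.0, sample weights, a replicate block and leaving out each library. CPM used TMM library sizes, and log2 CPM a prior count of 2. TPM used exon-union lengths of GENCODE M21, which 37607 of 39017 genes had. The fitting step was tested on simulated data. Permutation tests were two-sided. Depth limits precision most for Tfpi2.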

Additional observations from a re-analysis of the deposited data

Results flagged for a closer look

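In 84 sets of 5 libraries of 1 genotype, over the 9 genes, the named pathway genes and the marker lists, 7 held a library whose gap to its nearest neighbor exceeded 0.71 of the range (Dixon's criterion). Chance alone passes about 1 set in 20, or 4.2 of 84.

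KP 5 was set apart for F3, with a log2 CPM of 9.14 where the other KP tumors had 8.34 to 8.57. For Plau the same library had 2.97 against 5.79 to 6.93. For Serpinb2 it was KP 4 that stood apart, with -0.81 against 3.36 to 4.55.

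Of the pathway genes, F2rl1 measured 6.83 in KP 1 against 5.92 to 6.12 in the other KP tumors. Proc was at 0.91 in KPG1 1, whereas the rest of that genotype had 2.38 to 2.75. S100a10 measured 6.75 in KP 5 against 7.47 to 7.69 in the other KP tumors, and 7.18 in KPG1 5, where the rest of the genotype had 6.32 to 6.51.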

How the results depend on the processing

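The number of genes lower in KPG1 was 18 in limma, 31 with no filter, 29 in edgeR, 423 in DESeq2, 177 with sample weights and 1 to 223 when a library was left out. Genes higher numbered 10 in limma, 6 at a mean CPM of at least 1, 125 in DESeq2, 51 with sample weights and 3 to 71 when a library was left out. Pathway genes lower, regulators included, numbered 1 in limma, 2 with RLE scaling, with no filter and at a mean CPM of at least 1, 11 in DESeq2, 7 with sample weights and 0 to 6 when a library was left out. Of the 9 members 1 was past the threshold in limma, 2 in DESeq2 and with sample weights (F3 and Plaur in both), and 0 to 3 when a library was left out. The cause of these changes was not tested.

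The labels number replicates alike in both genotypes and do not say whether the numbers pair the samples. The correlations of same-numbered libraries were -0.12, 0.08, 0.06, 0.06 and -0.16. They were not set against differently numbered libraries, so they cannot decide whether the samples are paired. With a replicate block 1 gene was lower and 4 higher, and 0 pathway genes and 0 members passed.

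The direction turned for Tfpi, to -0.21 with sample weights and it ranged from -0.15 to 0.33 when a library was left out, with a negative sign without KP 4, KP 5 or KPG1 1. For Tfpi2 it turned to -0.31 in edgeR, -0.32 in DESeq2, -0.18 with sample weights, -0.049 with the replicate block and -0.32 without KP 5, the low end of -0.32 to 0.68 when a library was left out. Thbd had -0.077, Serpind1 0.27 and Lrp1 0.047 with sample weights. When a library was left out, Serpind1 ranged from -0.58 to 0.15, positive without KP 4 or KP 5, and Serpine2 from -0.056 (without KP 1) to 0.56. The platelet list had -0.42 by its mean log2 CPM. Directions of the other members and named pathway genes held under every alternative tried.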

Other observations

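The genes whose deviations from the group means were most like those of F3 over the 10 libraries, of 11688 genes compared, were Zfp954, Nptn, Sec22b, Pcyox1 and Rwdd2b, with Pearson r of 0.95, 0.95, 0.92, 0.92 and 0.92. Without KP 5, the highest tumor for F3, r was 0.86, 0.84, 0.75, 0.75 and 0.74.

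For Plaur they were Prkcsh, Uba1, Ifi202b, Ahcy and Tigit, with r of 0.98, 0.97, 0.95, 0.95 and 0.95, and 0.96, 0.93, 0.90, 0.90 and 0.91 without KP 5. These genes were picked as the highest of 11688, so r describes likeness and was not tested.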
